A study of Homo sapiens with 8 samples.

Results

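Vesicle trafficking and endosome genes were taken from the tables of poly(A) site usage by the form of their symbols. These begin with RAB, ARF, ARL, VPS, SNX, CHMP, SEC, STX or COG followed by a digit, or with TRAPPC, VAMP, EXOC, TMED, GOLG or TBC1D. Also taken were COP followed by A, B, E, G or Z, and AP followed by a digit, a letter and a digit. The rule found 128 of 3656 genes, with 275 of 7615 pairs of poly(A) sites. Some fit the letters without being members of the named family and were kept, such as SEC14L2, SEC61A1, SEC61A2, SEC62, SEC63, ARL6IP6 and the RAB effectors and regulators RAB11FIP3, RAB3GAP1, RAB3GAP2 and RAB3IP.

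QuantSeq REV, a 3′ end method primed by oligo(dT) at the poly(A) tail, was applied to RNA from MDA-MB-231 cells, an established line from a human triple-negative breast tumour, which carried a dead Cas9 fused to a KRAB repressor (CRISPR interference). The 8 samples formed 4 groups of 2 replicates: a control with a pair of non-targeting guides, HNRNPC knockdown (KD) with an HNRNPC guide and a non-targeting guide, PABPC4 KD with a PABPC4 guide and a non-targeting guide, and double KD with both targeting guides. The question was how loss of HNRNPC, a nuclear protein that binds U-rich RNA, and of PABPC4, which binds poly(A) tails, alters the choice of poly(A) site. The measure is logAPAR: the proximal-to-distal usage ratio of a pair in KD, divided by that in control, on a natural log scale. There is 1 table for each KD, and all use the same control. Below 0, usage shifted to the distal site, and above 0 to the proximal site. The tables hold no values per library and the total depth is unknown, so the p-values reflect counting error over summed libraries, with no share for replicate spread. Reads were normalised before the fit, so counting error and read numbers here are in normalised units. Their scale to sequenced reads is unknown. Neither target gene has a listed pair, and their depletion was not checked here. Which table is PABPC4 KD was settled by elimination, because its name mixes the targets.

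A vesicle buds from its donor membrane under a coat (COPII with SEC24 proteins at the endoplasmic reticulum, COPI at the Golgi, AP adaptors with clathrin), is caught at the target by tethers such as TRAPP, COG and the exocyst, and fuses through SNAREs of the syntaxin and VAMP families. RAB and ARF GTPases mark the membranes, and TBC1D proteins switch RABs off. In endosomes, retromer (VPS26, VPS29, VPS35) and sorting nexins return cargo, while ESCRT-III, built from CHMP proteins, cuts off vesicles that bud into the lumen. A gene with several poly(A) sites makes mRNAs that differ in the length of the 3′ untranslated region (UTR), or in the last exon.

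The genes had 319 sites, of which 164 were named by a transcript and 155 by a position. Of the former, 139 were found, version included, in Gencode release 44 (hg38). Of the position-named sites, only 13 of 155 lay inside their own gene on hg38, so they belong to some other, unnamed build and were not placed. To show sequence at the called genes, the last 30 bases of 9 transcript ends are given 5′ to 3′ on the transcript strand, from Gencode release 44. The called pairs held 10 matched ends, 6 with a poly(A) signal word in the last 40 bases and 4 without. Of these, 7 are shown, and 3 without a signal word are not (CHMP3 middle, RAB29 proximal and VPS29 distal). The distal ends of CHMP3 and RAB29 are shown for comparison and are in no called pair. Capitals mark the poly(A) signal words AATAAA and ATTAAA, searched on the transcript strand only. All of these ends lie in a 3′ UTR.
CHMP3 proximal end, ENST00000409225.2: attttAATAAAtttttgctttagcacttgg
CHMP3 distal end, ENST00000263856.9: aaataccaagagcttcagtgctggatcata
RAB29 distal end, ENST00000367139.8: atcacaAATAAAtgagaactaagtcttgta
SEC24B distal end, ENST00000265175.5: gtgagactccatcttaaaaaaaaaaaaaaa
EXOC5 distal end, ENST00000621441.5: ttttactAATAAAgttcaaaggaaaaatga
RAB31 distal end, ENST00000578921.6: gattcatactAATAAAtattttcagtttta
TBC1D1 distal end, ENST00000261439.9: cAATAAAacaagaaataattcatgctcaca
TMED4 distal end, ENST00000457408.7: ttATTAAAttatctgacctacagaactaaa
VPS13D distal end, ENST00000620676.6: tggAATAAAatgccttgtggacttcccaaa

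A signal word lay in the last 40 bases of 69.8% of the matched trafficking ends, beside 66.4% of all 4220 matched ends, and AATAAA alone in 59.0% and 53.4%. Among ends of protein-coding transcripts the shares were 69.9% beside 73.6%, and for AATAAA alone 59.3% beside 59.5%. At the distal end of CHMP3, AATAAA begins 33 bases before the end, upstream of the bases shown. The distal end of SEC24B had neither word, and 16 of its last 20 bases were A. Oligo(dT) can prime on such stretches. A stretch of A, defined after the values were seen as a run of at least 6 A or at least 12 A in the last 20 bases or the next 20, was found at 27 of the 139 trafficking ends (19.4%) and at 24.0% of all matched ends. A run of at least 5 U (TTTTT) in the last 100 bases was found at 29.5% of the trafficking ends and at 32.7% of all.

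In HNRNPC KD, 3 of 222 pairs passed p 0.01, in 2 genes, CHMP3 and TMED4. This was 1.35% of the trafficking pairs, beside 2.08% of all pairs in the table. In PABPC4 KD no pair of 218 passed by the authors' regression, beside 0.756% of all pairs, and 8 had a p under 0.05, which was 3.67% beside 4.03% of all. In double KD 10 of 234 pairs in 9 genes passed, which was 4.27% beside 4.33% of all pairs. At p 0.01 the shares of trafficking pairs were at or under those of the whole tables; at p 0.05 the share was 5.41% beside 6.77% for HNRNPC KD and 11.1% beside 9.12% for double KD. With an adjusted p of 0.05, the trafficking pairs left were 1 for HNRNPC KD (0.427% of all pairs passed), 0 for PABPC4 KD (0.0168% of all pairs) and 2 for double KD (2.23% of all pairs).

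The called pairs moved both ways. In HNRNPC KD 1 trafficking pair shifted to the proximal site (0.938% of all pairs did) and 2 to the distal site (1.14% of all). In double KD 7 trafficking pairs shifted to the proximal site, where 1.86% of all pairs did, and 3 to the distal site, where 2.48% of all did. The median logAPAR over the trafficking pairs was 0.07 for HNRNPC KD, 0.04 for PABPC4 KD and −0.03 for double KD, beside 0.01 for each whole table. The median Wald standard error was 0.819, 0.788 and 0.785, so a pair of median precision needed an absolute logAPAR of 2.11, 2.03 and 2.02 to reach p 0.01. Pairs with smaller errors, such as those of CHMP3 and RAB29, passed with smaller values.

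**Figure D1:**
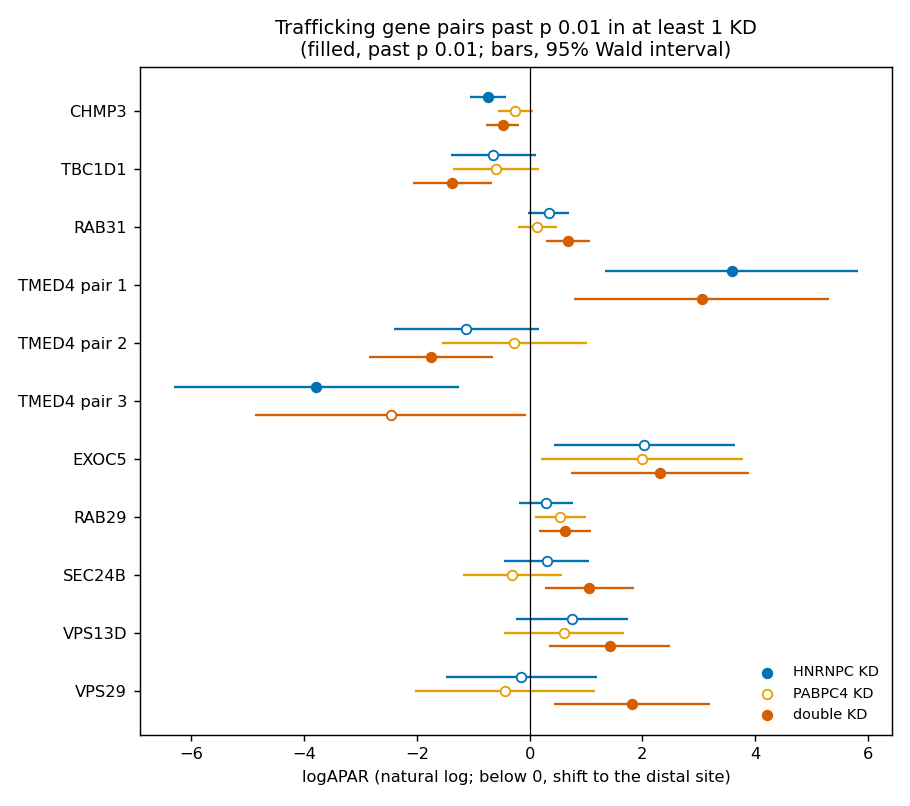
logAPAR (horizontal axis, natural log) of the 11 trafficking gene pairs past p 0.01 in at least 1 KD, with 95% Wald intervals for HNRNPC KD, PABPC4 KD and double KD. Filled points passed p 0.01; no PABPC4 KD point is filled, and the double KD values of CHMP3 and TBC1D1 lie below 0 while those of RAB31, RAB29, SEC24B, VPS13D, VPS29 and EXOC5 lie above 0.

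CHMP3, an ESCRT-III subunit, gave the smallest p of these genes in any table. Its gene lies on hg38 at chr2:86503430-86563479, minus strand, and the ends of the called pair are 916 nt apart. In HNRNPC KD logAPAR was −0.742 (95% Wald interval −1.06 to −0.427, p 3.97e-06, adjusted p 0.00211), a shift to the more distal of both ends. In double KD it was −0.481 (−0.773 to −0.188, p 0.00127, adjusted p 0.0548). In PABPC4 KD it was −0.255 with p 0.102. The value of double KD differed from that of HNRNPC KD by 0.261, with p 0.234 by a two-sided normal test. That test used an upper-bound error that counts the shared control. With the error from reads per site, recovered as described below, the same difference had p 0.0933.

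Where a gene has at least 3 sites in common between tables, normalised reads per site and group (both replicates summed) can be recovered from the variances. This worked for 28 trafficking genes with 91 sites. At CHMP3 the proximal end took 24.3% of control reads; the share was 13.7% with HNRNPC KD, 20.4% with PABPC4 KD and 16.9% with double KD. The Wilson 95% intervals, which cover counting error only, were 20.7 to 28.4% in control and 14.3 to 19.8% in double KD and did not overlap. The reads come from the same logAPAR values and errors as the call, so the intervals are no separate support for it. The proximal end had 115, 84.7, 104 and 119 reads in the 4 groups in that order, and the middle end 308, 477, 359 and 518 reads. The middle end, which has no signal word and a stretch of A, held more reads in HNRNPC KD and double KD than in control, while the proximal end in double KD was close to control. The share of the distal end was between 9.05% and 10.5% in all 4 groups. No pair with the distal end passed p 0.01 in any table.

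CHMP4B, which forms the main ESCRT-III filament, had the smallest Wald error of the trafficking genes in double KD. Its logAPAR was 0.187 with HNRNPC KD, 0.04 with PABPC4 KD and −0.143 with double KD, and none passed p 0.01. The interval in double KD ran from −0.339 to 0.05, which covers counting error only.

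Genes with RAB symbols were the largest family, with 25 genes, of which 21 encode RAB GTPases. RAB31, which acts between the trans-Golgi network and endosomes, shifted to the proximal site in double KD with logAPAR 0.678 (0.291 to 1.06, p 0.000601, adjusted p 0.0313). Its value was 0.336 in HNRNPC KD and 0.136 in PABPC4 KD, with p 0.0752 and p 0.441. Each of its sites held at least 25.6 reads in both control and double KD. The distal end has AATAAA and no stretch of A.

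RAB29, a Golgi and lysosome RAB that recruits the kinase LRRK2, shifted to its proximal end in double KD with logAPAR 0.632 (0.168 to 1.10, p 0.00762, adjusted p 0.192). PABPC4 KD gave 0.546 with p 0.0199, and HNRNPC KD 0.286 with p 0.237. The middle site, named by a position, held 65.3% of control reads, and 57.9% with HNRNPC KD, 54.4% with PABPC4 KD and 49.8% with double KD. The Wilson intervals of control (58.8 to 71.9%) and double KD (43.3 to 56.7%) did not overlap. They cover counting error only, and the reads come from the values behind the call, so they are no separate support for it. Between control and double KD, the share of the proximal end went from 21.6% to 30.9% and that of the distal end from 13.1% to 19.3%. The proximal against the distal end gave logAPAR −0.03 in double KD with p 0.932. The proximal end, which is in the called pair, has no signal word and a stretch of A; the distal end, which is not, has AATAAA.

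Among the other RABs no pair passed p 0.01. RAB22A, an early endosome GTPase, came closest in HNRNPC KD, with logAPAR −0.939 and p 0.0101, and had −0.822 with p 0.0192 in double KD. RAB27A, which acts in secretory granule and exosome release, had −0.745 in double KD with p 0.0167. TBC1D1, a GTPase-activating protein for RABs on GLUT4 vesicles, gave the smallest p of these genes in double KD. It shifted to the distal site with logAPAR −1.37 (−2.07 to −0.671, p 0.000123, adjusted p 0.00844). The single KDs gave −0.644 with p 0.0948 and −0.595 with p 0.127. At least 7.85 reads stood behind each site in the double KD comparison, so the interval is wide. The distal end has AATAAA and no stretch of A.

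SEC24B, a COPII adaptor that picks cargo at the endoplasmic reticulum, shifted to the proximal site in double KD with logAPAR 1.06 (0.268 to 1.85, p 0.00876, adjusted p 0.213). It had 0.301 in HNRNPC KD and −0.308 in PABPC4 KD, with p 0.435 and p 0.492. The distal end held 355 control reads, and 304 with HNRNPC KD, 314 with PABPC4 KD and 124 with double KD. The other site of the pair held 13.0, 15.1, 8.47 and 13.1 reads. The ratio therefore moved in double KD with fewer reads at the distal end, the one that closes in a run of A, and not with more reads at the proximal one. Reads of the gene in double KD were 0.378 times those in control, against a median ratio of 1.09 over all 679 solved genes, and 2.50% of those genes had a lower ratio. From these reads, site choice and loss of the mRNAs with 1 end cannot be told apart.

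TMED4, a cargo receptor of the p24 family in the early secretory pathway, had 3 called pairs among its 4 sites. Its most used site, named by a position, held 224 reads in control, 88.3 in HNRNPC KD and 118 in double KD. A site 595 nt upstream held 0.826 reads in control, 11.7 in HNRNPC KD and 9.12 in double KD. This pair gave logAPAR 3.58 in HNRNPC KD (1.34 to 5.83, p 0.00175, adjusted p 0.167) and 3.05 in double KD (0.785 to 5.31, p 0.00831). Since fewer than 1 normalised read stood at that site in control, the size of the shift is poorly set. The same site gave the called pair with the most upstream site in HNRNPC KD, with logAPAR −3.78 and p 0.00331. PABPC4 KD does not list it. The third called pair set the most used site against the transcript end downstream and shifted to that distal end in double KD, with logAPAR −1.75 (−2.85 to −0.654, p 0.00177). HNRNPC KD gave −1.12 with p 0.0870 and PABPC4 KD −0.271 with p 0.681. Over the 3 sites shared by all tables, reads of the gene were 0.399 times control with HNRNPC KD, 0.856 times with PABPC4 KD and 0.575 times with double KD.

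VPS29, a retromer subunit, shifted to the middle site in double KD with logAPAR 1.82 (0.436 to 3.21, p 0.00996, adjusted p 0.230). The single KDs gave −0.149 and −0.437, with p 0.828 and p 0.591. The distal end held 21.9 control reads, and 19.97 with HNRNPC KD, 14.4 with PABPC4 KD and 5.45 with double KD. Its share was 21.0% in control (Wilson interval 14.4 to 29.96%) and 7.82% in double KD (3.09 to 15.7%), and the intervals overlapped. The most proximal site held most reads in all groups, between 65.5% and 81.0%. Reads of VPS29 were 0.690 times control with HNRNPC KD, 0.860 times with PABPC4 KD and 0.669 times with double KD. The medians over all solved genes were 0.929, 1.01 and 1.09. VPS13D, a lipid transfer protein at membrane contacts, had logAPAR 1.42 in double KD (0.347 to 2.50, p 0.00951), 0.746 in HNRNPC KD and 0.605 in PABPC4 KD. The distal end of VPS13D has AATAAA, and each site held at least 3.33 reads in the double KD comparison. VPS33A, the SM protein of the HOPS and CORVET tethers, was among the 5 best measured genes, and its 0.350 in double KD had p 0.115.

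EXOC5, an exocyst subunit, had values above 0 in every table: 2.03 in HNRNPC KD with p 0.0130, 1.99 in PABPC4 KD with p 0.0296 and 2.31 in double KD with p 0.00419. Only the last passed p 0.01, and its interval ran from 0.727 to 3.88. The tables share their control, and the error assures only 1.54 reads at each site in double KD and in control. No other exocyst pair passed p 0.01 in double KD, and 3 exocyst pairs were listed there.

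**Figure D2:**
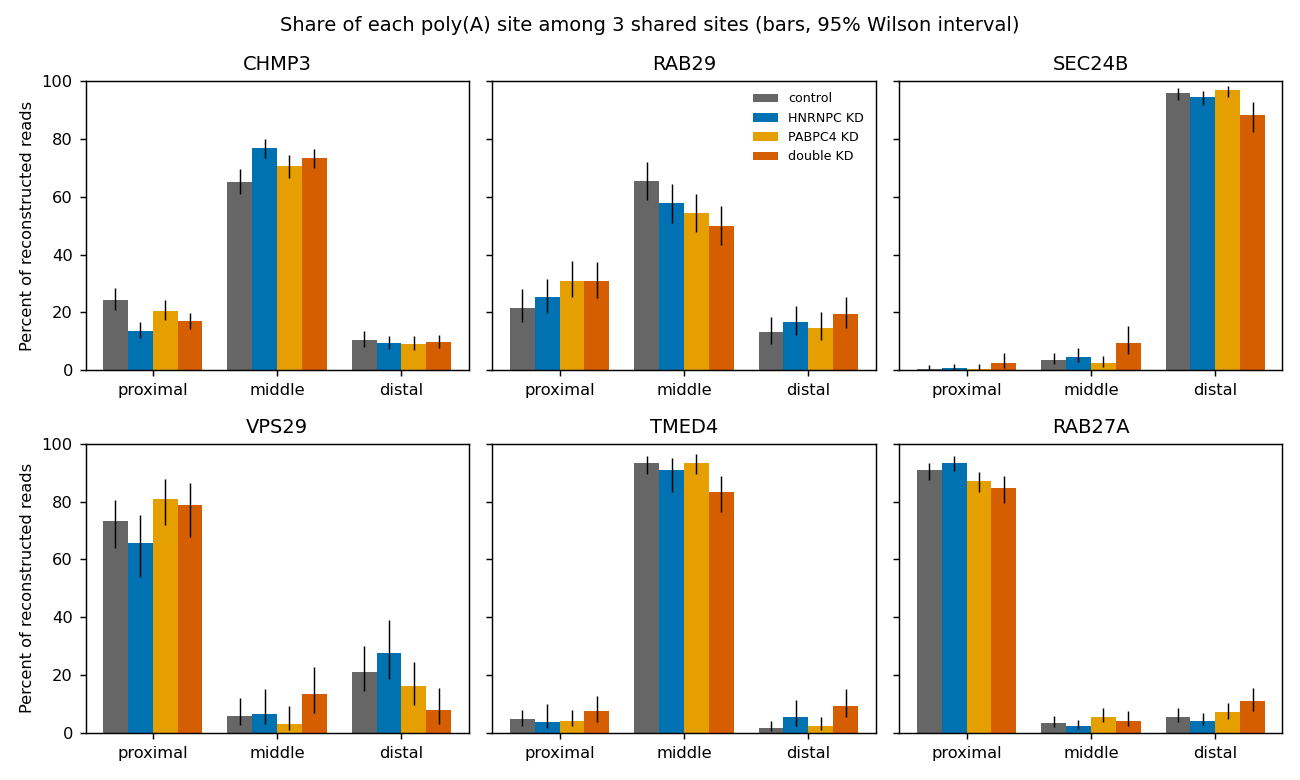
Percent of reconstructed reads (vertical axis) at each of 3 poly(A) sites shared by all tables, from proximal to distal, in control, HNRNPC KD, PABPC4 KD and double KD, with 95% Wilson intervals that cover counting error. At SEC24B the distal site goes from 96.0% in control to 88.2% in double KD, and at RAB29 the middle site goes from 65.3% to 49.8%.

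In the families without a called gene, TRAPPC10, a TRAPPII subunit, had logAPAR −2.52 in double KD with p 0.0453. The lower bound for TRAPPC10 was 0.631 reads at a site, and PABPC4 KD does not list the pair. AP1G1, the γ subunit of AP-1, had 0.873 in double KD with p 0.0583. SNX8, an endosomal sorting nexin, had 0.853 with p 0.0719. VAMP3, the SNARE of recycling endosomes, had 1.45 with p 0.109, and STX17, the autophagosomal syntaxin, 1.12 with p 0.118. COPA, GOLGB1 and COG8 had p-values of 0.368, 0.395 and 0.932. ARL1, a trans-Golgi GTPase among the best measured genes, had −0.158 with p 0.444. VPS36, an ESCRT-II subunit, had the lowest value of double KD, −3.64, but with p 0.0297 and a lower bound of 0.356 reads at a site.

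**Figure D3:**
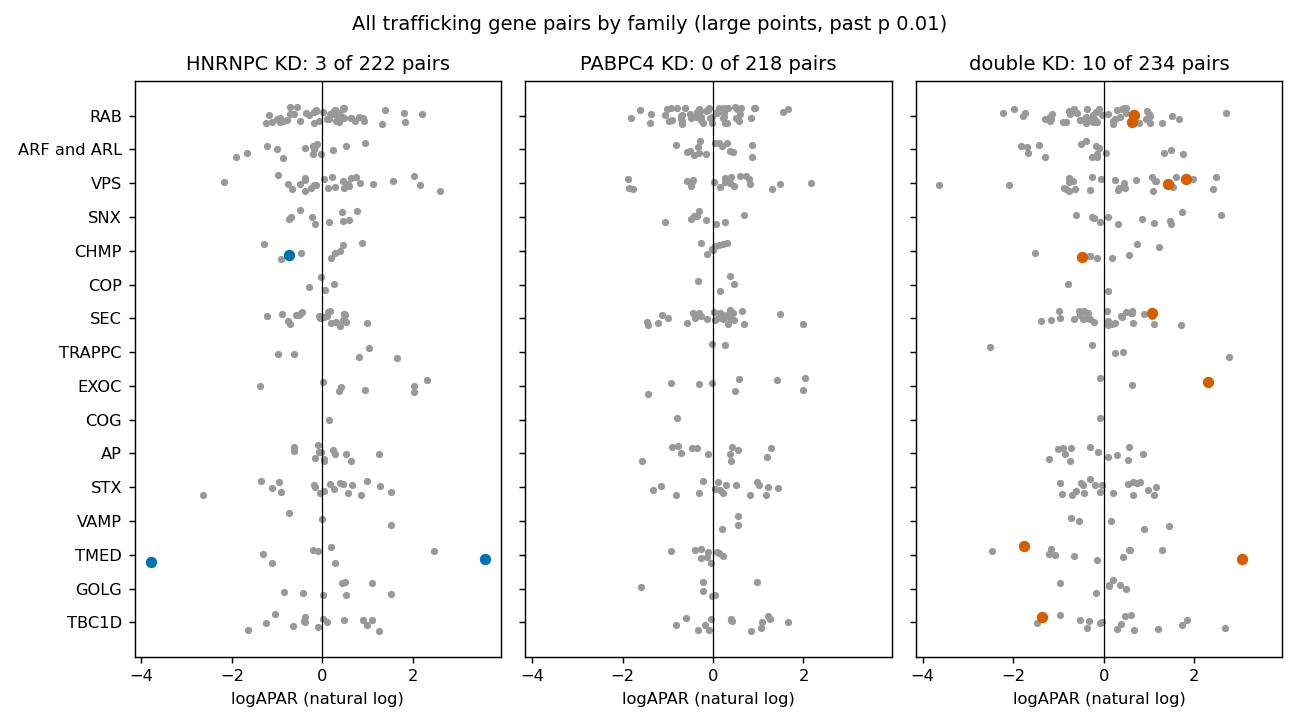
logAPAR (horizontal axis, natural log) of every listed trafficking pair in HNRNPC KD, PABPC4 KD and double KD, 1 row of points for each family, with vertical scatter for legibility. Large coloured points passed p 0.01; these are 3 of 222, 0 of 218 and 10 of 234 pairs, and 2 of those in double KD are RAB pairs and 2 VPS pairs.

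At 25 of the 28 reconstructed trafficking genes a single site held over 50% of control reads. The site with most reads in control kept that place at 24 genes with HNRNPC KD, 25 with PABPC4 KD and 24 with double KD. The median was 12.3 reads per site in control, and 38 of 91 sites had under 10. Reads per gene had a median ratio to control of 0.922 with HNRNPC KD, 1.02 with PABPC4 KD and 1.09 with double KD, beside 0.929, 1.01 and 1.09 over all solved genes.

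Of the called trafficking pairs in double KD, 9 had a matched transcript end, and 5 of these had an end at a stretch of A (CHMP3, EXOC5, RAB29, SEC24B and VPS29). Among trafficking pairs in double KD, 13.2% of those with such an end passed p 0.01 (5 of 38) and 3.60% of those without (4 pairs). Over all genes it was 7.29% and 3.70% in double KD, 2.05% and 2.64% in HNRNPC KD, and 1.39% and 0.717% in PABPC4 KD. Position-named ends were not placed, so they were not checked for A. Without pairs with such an end, 2 of 185 trafficking pairs passed in HNRNPC KD (1.08%, beside 2.09% of all pairs left). In PABPC4 KD 0 of 184 passed (0%, beside 0.592%) and in double KD 5 of 196 (2.55%, beside 3.59%). The part of priming on such stretches in these shifts was not tested.

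To ask what the second depletion added, the tables were subtracted, so that the shared control cancels. With an upper bound for the error, no trafficking pair passed p 0.01 between double KD and PABPC4 KD, where 190 pairs were compared and 1.72% of all pairs passed. Between double KD and HNRNPC KD, none of 200 passed, beside 1.43% of all pairs. Against the value expected if both single effects added up, where the control does not cancel, none of 174 passed, beside 1.04%. Under p 0.05 lay 5, 5 and 4 pairs, which was 2.63%, 2.50% and 2.30% beside 4.38%, 2.96% and 3.37% of all. The median upper-bound error was 1.00, 1.05 and 1.18, so differences under about 2.58, 2.71 and 3.04 could not reach p 0.01 at a pair of median precision. The smallest p between double KD and PABPC4 KD was that of SEC24B, with a difference of 1.37 (0.186 to 2.55, p 0.0233). Between double KD and HNRNPC KD it was that of VPS26B, a retromer subunit, with −0.952 and p 0.0190.

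At the 28 genes with reconstructed reads the error of a difference between KDs can be set without counting the control. Of 107 pairs there, 4 then passed between double KD and PABPC4 KD, beside 5.57% of all pairs at solved genes. They were SEC24B (1.37, p 0.00253), TMED4 (−1.48, p 0.00599), STX17 (−2.35, p 0.00721) and VPS29 (2.26, p 0.00879). Between double KD and HNRNPC KD 4 passed, beside 3.56% of all. These were RAB27A (−1.06, p 0.00137), STX6, a trans-Golgi syntaxin (−1.18, p 0.00577), and both VPS29 pairs with the distal end (1.45, p 0.00554, and 1.97, p 0.00778). STX17 alone differed from additivity (−3.87, p 0.00837), beside 2.35% of all pairs. The error of that departure does count the control reads. The STX17 pair is the same in both comparisons. Its distal site had 6.11 control reads and 0.962, 1.89 and 12.5 reads with HNRNPC, PABPC4 and double KD. In the STX17 pair given earlier that site is the proximal one, so the signs differ. The proximal end of the pair here has no signal word and 17 A in the next 20 bases. After adjustment over all pairs none stayed under 0.05; the smallest adjusted p was 0.0809, that of SEC24B.

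**Figure D4:**
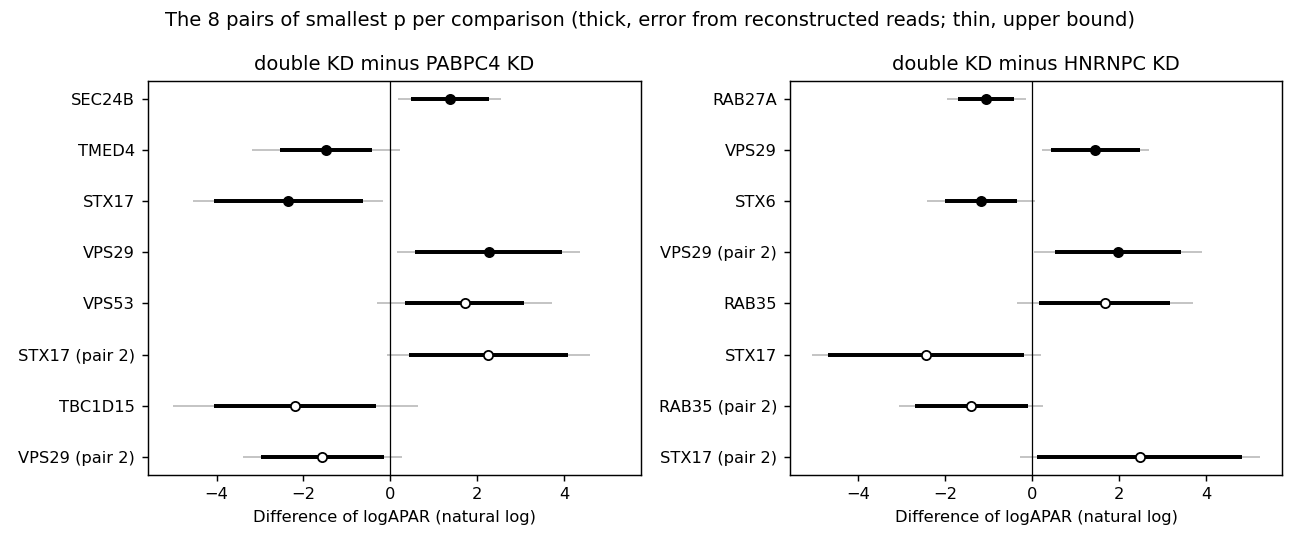
Difference of logAPAR (horizontal axis, natural log) between double KD and each single KD for the 8 pairs of smallest p at genes with reconstructed reads. Thick bars are 95% intervals from reconstructed reads and thin bars from the upper-bound error; filled points passed p 0.01 with the former, 4 in each panel.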

How the data were processed

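QuantSeq REV libraries were quantified by the authors with Salmon 0.14.1 against distinct Gencode release 33 transcript ends and normalised, and the submitters' processing notes also name UMI-tools and hg38. That description leaves unexplained the 155 of 319 trafficking sites named by a position, of which 13 lay inside their gene on hg38. The authors fitted site usage with APAlog, a multinomial logistic regression, and deposited for every pair of sites a natural log ratio (logAPAR) with a p-value and an adjusted p (q-value). No column held values per library. The 3 tables are the authors' own comparisons, and they were used because no other values were analysed here; p 0.01 is the threshold of the study.

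From these, Wald standard errors, differences between tables and reads per site (genes with at least 3 shared sites, misfit up to 0.01) were computed in Python 3.11.15 with numpy 2.4.6, scipy 1.17.1 and pandas 2.3.3, after tests on simulated data. Differences were adjusted by Benjamini-Hochberg over all shared pairs. Sequences were read with Gencode release 44 and hg38; some items are not reported here.

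Members and lists were chosen with earlier results of these data known. Named genes were those with a pair past p 0.01, the gene of smallest p in double KD for each other family, and the 5 with the smallest Wald error in double KD. The genes outside the named families and others (RAB22A, RAB27A, VPS26B, VPS36, STX6) were chosen after their values were seen. Replicates are separate samples per the labels, and counting intervals do not cover their spread.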

Additional observations from a re-analysis of the deposited data

How the results depend on the processing

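Of 48 alternatives, 35 left the count of trafficking pairs past the threshold within 1.5 times the reported one and 13 moved it. Most of these 35 kept a count of 0, which a stricter threshold or fewer pairs could not have raised, so the tally is no measure of robustness. In HNRNPC KD the count of 3 became 1 with an adjusted p of 0.05, 1 with p 0.001, 1 with pairs shared by all tables and 0 when each gene kept just its outermost pair of sites. In double KD the count of 10 became 2 with an adjusted p of 0.05, 2 with p 0.001, 3 with the outermost pair, and 5 without pairs that have an end at a stretch of A, an alternative chosen after seeing the data. With the error from reconstructed reads, the counts of 0 became 4 for double KD minus PABPC4 KD, 4 for double KD minus HNRNPC KD and 1 for the departure from the sum. For the other trafficking genes, an adjusted p of 0.05 left 0 of 1 pairs in PABPC4 KD and 4 of 10 in double KD. A limit of 5 on absolute logAPAR and leaving out genes outside the named families changed none of the 6 counts they were applied to, nor did leaving out RAB effectors and regulators as well, which was also chosen after seeing the data. The limit removed no pair, so its outcome was fixed. Depth limits most pairs, since sites with few reads carry the widest errors. Leaving out a replicate was not run. No paired analysis was possible because nothing is given per library.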

Other observations

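Trafficking genes that the symbol rule leaves out were listed separately (191 coat, tether, fusion, sorting and scission genes). Of these, 66 were listed in double KD with 125 pairs, and 10 pairs of 7 genes passed p 0.01, which was 8% beside 4.33% of all pairs. Toward the distal site went 8 (2.48% of all pairs did) and toward the proximal site 2 (1.86% of all). Of these 10, 3 are SNAP29 pairs that share their proximal site. In HNRNPC KD 0 of 110 pairs passed by the authors' regression, beside 2.08% of all, and in PABPC4 KD 1 of 122, beside 0.756% of all. The smallest p of the list was that of SNAP29, the SNARE partner of STX17 in autophagosome fusion, which in double KD shifted distally with logAPAR −1.37 (SE 0.242, p 1.39e-08, adjusted p 3.59e-06). Its values in the single KDs were −0.152 and 0.141, with p 0.557 and p 0.623. GOSR1, a Golgi SNARE, shifted distally in double KD with −1.53 (SE 0.311, p 8.90e-07, adjusted p 0.000120), with 0.02 and 0.213 in the single KDs.

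ERGIC3, a cargo receptor between endoplasmic reticulum and Golgi, shifted to the proximal site in double KD with 1.29 (SE 0.306, p 2.38e-05, adjusted p 0.00220). ARFIP2, a BAR domain protein that binds ARF and ARL1, had 2 called pairs that share a site, 1.07 (SE 0.233, p 4.19e-06) and −1.04 (SE 0.347, p 0.00263), so usage of the shared site went down against both neighbours. EHD1, an ATPase of recycling endosomes, had −0.704 with p 0.00286, BLOC1S6 −0.976 with p 0.00767, and WASHC4, of the WASH complex, −1.65 with p 0.00532 in double KD and −1.60 with p 0.00911 in PABPC4 KD. Whether these values differ between KDs was not tested for this list.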
